A study of Homo sapiens with 3 samples.

Results

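The interleukin 6 family of cytokines, its receptors, the signal carrier STAT3 and the feedback inhibitors SOCS1 and SOCS3 were followed across 3 arrays of HaCaT cells, a human epidermal keratinocyte line that became immortal in culture. The members were taken by gene name from the array annotation: IL6, IL11, LIF, CLCF1, IL6R, IL6ST, OSMR, SOCS1, SOCS3 and STAT3. All 10 were found, on 18 of 45033 transcripts, among 23595 gene symbols in all. The control cells were left untreated, the ATRA cells were given 1 µM all-trans retinoic acid, the active metabolite of vitamin A, and the ATRA+NIC cells were given the retinoid together with nicotinamide, the amide form of vitamin B3. Incubation lasted 36 h, all cells were grown in medium with fetal bovine serum, and nicotinamide on its own was not among the treatments. The sources used here do not give the nicotinamide dose. A group is 1 single-colour NimbleGen array, so no difference has an error between cultures, no test between groups was possible, and every value describes these arrays only.

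Cytokines of this family share one signal-transducing receptor chain, gp130, encoded by IL6ST. Interleukin 6 and interleukin 11 reach it through their own binding chains, LIF and CLCF1 signal through gp130 joined to the LIF receptor, and oncostatin M uses gp130 joined to OSMR. Janus kinases on these chains phosphorylate STAT3, which enters the nucleus and switches on target genes. SOCS3 is one such target, and its protein binds gp130 and shuts the signal down, while SOCS1 blocks Janus kinases and is best known as a brake on interferon signalling. In the epidermis the pathway is known for its part in wound repair and in inflamed skin.

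The files held intensities, one per transcript, on a linear scale. A gene level is the mean log2 intensity of its transcripts, and a difference between arrays is called when the gene levels are at least 2-fold apart. An intensity of 50 is the lowest in the authors' value table, and random probes, designed to bind no human RNA, read 18.4 to 19.6. A filter on level kept the 12467 genes that reached the overall median, an intensity of 246.5, on at least 1 array. It kept 8 members. IL6 was under it on every array, and IL11 missed it narrowly at 245 on the ATRA array. SOCS1 and SOCS3 passed only through the ATRA array, which ties their passing to their difference, so counts below are over all 10 members and the 2-fold shares of all 23595 genes stand beside them. Transcripts of 1 gene gave differences with a pooled SD of 0.31 (ATRA against control), 0.30 (ATRA+NIC against ATRA) and 0.24 (ATRA+NIC against control) on the log2 scale, which may hold differences between isoforms as well as technical scatter and is not an error between cultures.

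On the ATRA array every member had a higher level than on the control array by measured values, though both IL6 readings were under 50. The differences of STAT3 (0.28) and IL6R (0.29) were smaller than the pooled SD of 0.31 between transcripts of a gene. Of the 10 members, 5 were at least 2-fold higher: SOCS1, SOCS3, LIF, IL11 and CLCF1. None was 2-fold lower. Of all genes passing the filter, 45.6% were higher with ATRA than in the control. Without the filter, 4.23% of all genes were 2-fold higher and 3.22% were 2-fold lower, or 3.83% and 2.06% with it. On the ATRA+NIC array 9 of 10 members were lower than on the ATRA array, 6 of them at least 2-fold: the same 5 and the receptor gene OSMR. The shares of all genes were 4.12% lower and 3.09% higher, or 3.74% and 1.35% with the filter. Of genes passing the filter, 55.8% were higher with ATRA+NIC than with ATRA by any amount. Between ATRA+NIC and control, only IL6 was 2-fold apart by measured values, at intensities near the limit of 50, and 2.32% of all genes were 2-fold higher and 2.08% lower (1.03% and 0.971% with the filter). The median difference of the members was 1.00, −1.18 and 0.06 in log2 units in these 3 comparisons, and the median of all genes was −0.03, 0.04 and 0.00. Each array enters 2 of the comparisons, so a high reading on the ATRA array makes both of its differences large.

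**Figure D1:**
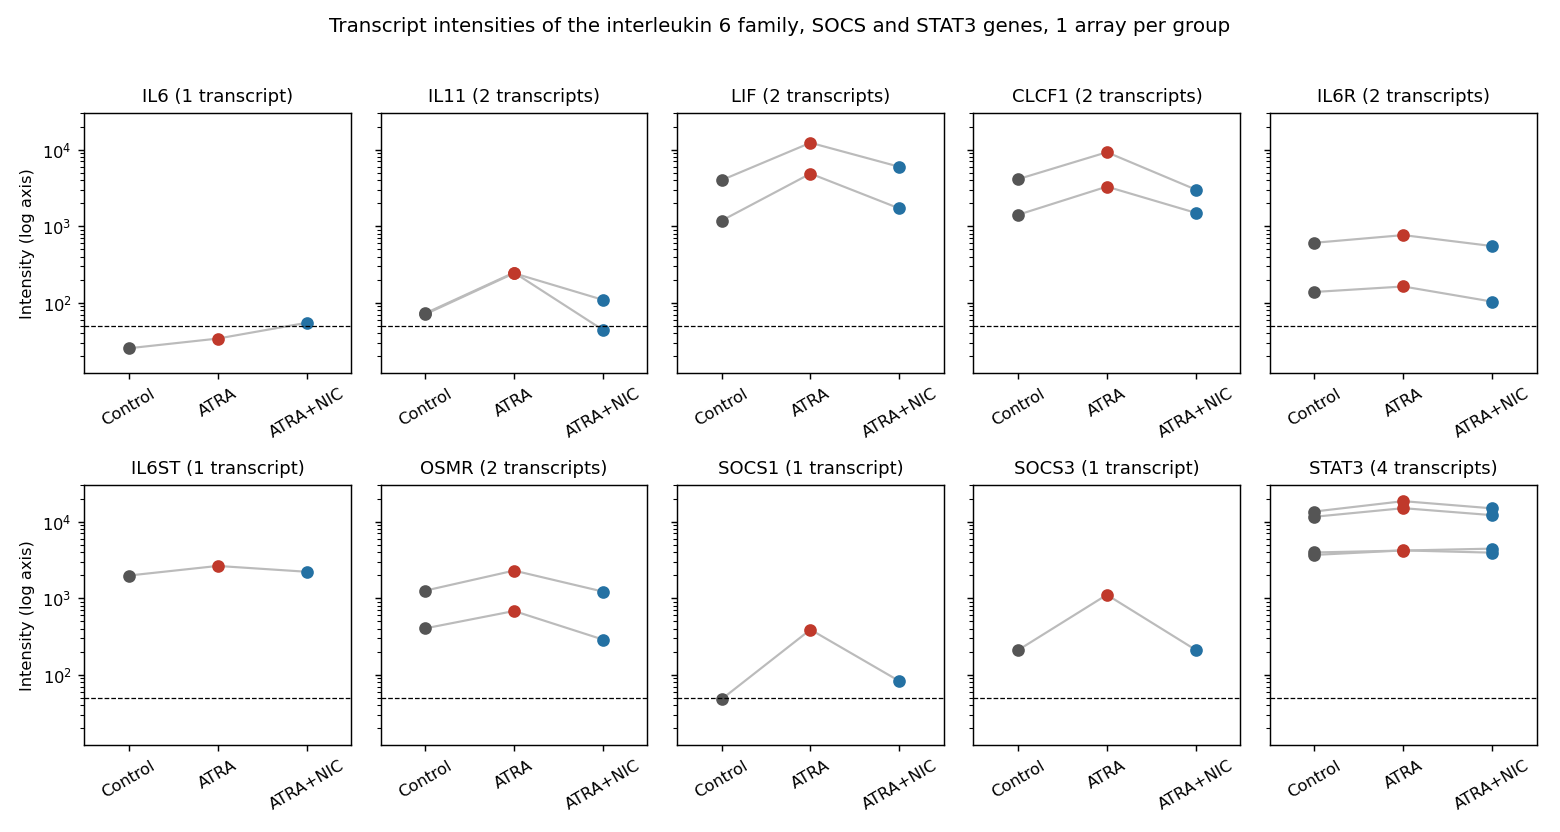
Intensity of each transcript (vertical axis, logarithmic) on the control array and with ATRA and ATRA+NIC, 1 panel per gene and 1 line per transcript, with a dashed line at 50. Of 18 transcripts 16 were highest on the ATRA array, and the transcript of IL6 lay at 25.4, 34.0 and 54.7. At the gene level 9 of 10 members were highest on the ATRA array, as were 33.4% of all genes passing the filter.

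The annotated start regions of the cytokine genes IL6 and IL11, the receptor gene OSMR and SOCS1 are printed. IL6 and IL11 are sister ligands with unlike readings here, and SOCS1 showed the greatest difference of the members. OSMR (TGATTCA) carries a match to the same short motif as IL11 (TGAGTCA). IL6R, not printed, also holds TGAGTCA and was 1.22-fold higher with ATRA than in the control. Sequences are RefSeq windows of 300 bases on GRCh38.p14, from 250 bases before to 50 after an annotated start, in the direction of the gene. RefSeq windows were matched for 8 of 10 members, and LIF and CLCF1 were not matched. Capitals mark any match to 4 motifs searched on both strands: the STAT motif TTCNNNGAA, the NF-kappaB motif of GGGA and TTCC with 2 bases between them, the AP-1 motif TGANTCA and the CRE motif TGACGTCA. IL6 lies at chr7:22726950-22727249 (plus strand), IL11 at chr19:55370414-55370713 (minus), OSMR at chr5:38845762-38846061 (plus) and SOCS1 at chr16:11256155-11256454 (minus).
IL6: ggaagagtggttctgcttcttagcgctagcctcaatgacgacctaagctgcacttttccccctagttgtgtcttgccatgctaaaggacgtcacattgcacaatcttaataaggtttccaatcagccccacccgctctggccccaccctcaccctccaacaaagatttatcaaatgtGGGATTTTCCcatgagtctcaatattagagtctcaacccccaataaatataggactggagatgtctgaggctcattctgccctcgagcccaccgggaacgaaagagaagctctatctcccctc
IL11: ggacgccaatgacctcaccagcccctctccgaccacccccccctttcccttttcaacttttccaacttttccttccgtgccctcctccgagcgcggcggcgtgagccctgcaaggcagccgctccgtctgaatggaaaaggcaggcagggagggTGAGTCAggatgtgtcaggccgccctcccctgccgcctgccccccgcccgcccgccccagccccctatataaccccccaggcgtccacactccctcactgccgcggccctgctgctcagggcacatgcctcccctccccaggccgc
OSMR: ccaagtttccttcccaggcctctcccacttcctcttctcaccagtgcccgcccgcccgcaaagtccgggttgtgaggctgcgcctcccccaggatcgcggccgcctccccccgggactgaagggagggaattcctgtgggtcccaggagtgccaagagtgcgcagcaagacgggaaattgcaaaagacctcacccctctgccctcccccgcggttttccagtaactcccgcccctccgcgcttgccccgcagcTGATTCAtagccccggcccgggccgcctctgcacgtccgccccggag
SOCS1: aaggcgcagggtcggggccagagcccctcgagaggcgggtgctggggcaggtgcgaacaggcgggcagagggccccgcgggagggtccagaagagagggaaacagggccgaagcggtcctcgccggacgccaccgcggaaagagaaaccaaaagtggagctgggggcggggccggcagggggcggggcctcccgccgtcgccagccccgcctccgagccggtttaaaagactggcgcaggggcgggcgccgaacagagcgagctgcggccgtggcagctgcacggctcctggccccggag
The window of IL6 held the only NF-kappaB match among the members, GGGATTTTCC, starting 73 bases before the annotated start. Such a match was present in 1.61% of 35116 windows of this length. The AP-1 letters stood in 3 of the 8 members, in IL11 (TGAGTCA, 96 bases before the start), in OSMR (TGATTCA, from base 4 after it) and in IL6R (TGAGTCA, from base 38 after it), against 7.71% of all windows. Members are counted here as genes, with a match in any window sufficing, while the shares are of windows (35116 for 27305 gene symbols). SOCS1, with a GC content of 74.0%, held none of the 4 motifs, nor did the windows of SOCS3, IL6ST or STAT3. SOCS3 had windows at separate annotated starts, chr17:78360876-78361175 and chr17:78359618-78359917. The bases between these were not searched. No member's window held the STAT letters, which 7.66% of all windows did, or the CRE letters (1.85%). A match describes letters in this window and is not evidence of binding.

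Among the ligands, LIF, a cytokine that acts on stem cells and epithelia, had its 2 transcripts at 1179 and 3983 on the control array, 4853 and 12259 on the ATRA array, and 1701 and 5951 on the ATRA+NIC array. Both transcripts were highest with ATRA, and with ATRA+NIC both stayed above their control reading. At the gene level LIF was 3.56-fold higher with ATRA than in the control, a difference of 1.83 on the log2 scale that exceeded the differences of 98.9% of genes passing the filter. It was 2.42-fold lower with ATRA+NIC than with ATRA, and 1.47-fold higher with ATRA+NIC than in the control. In the hg18 annotation of the files its transcripts span chr22:28966440-28972748.

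CLCF1 encodes cardiotrophin-like cytokine, a ligand that is secreted with a partner protein. Its transcripts read 1405 and 4104 on the control array, 3281 and 9230 with ATRA, and 1490 and 2998 with ATRA+NIC. They gave nearly equal differences for ATRA against control (1.22 and 1.17 on the log2 scale), while against control the ATRA+NIC readings went opposite ways (0.08 and −0.45). The gene level was 2.29-fold higher with ATRA than in the control and 2.60-fold lower with ATRA+NIC than with ATRA.

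IL11, a cytokine known from bone marrow, fibrosis and epithelial stress, was dim. Its transcripts had intensities of 72.6 and 70.6 on the control array, 248 and 243 with ATRA, and 44.1 and 109 with ATRA+NIC. The readings agreed closely on the first pair of arrays and were far apart on the ATRA+NIC array, where 1 lay under 50. The gene level was 3.42-fold higher with ATRA than in the control. From ATRA to ATRA+NIC it was at least 3.32-fold lower, computed with the value under 50 set to 50, and 1.99-fold lower with an offset of 100. The transcripts differed in sign between ATRA+NIC and control (−0.72 and 0.63), so that comparison has no common direction.

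IL6, the founding member and a major inflammatory cytokine, had 1 transcript, with intensities of 25.4 on the control array, 34.0 with ATRA and 54.7 with ATRA+NIC. These are at most a little above 50, and the transcript was under it on the first pair of arrays. Set to 50 there, the difference of ATRA+NIC was 1.09-fold against either array, where the measured values gave 2.15-fold against the control. IL6 was the only member not highest on the ATRA array.

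Of the receptor chains, OSMR, the oncostatin M receptor subunit that keratinocytes use, read 404 and 1254 on its 2 transcripts in the control, 681 and 2294 with ATRA, and 288 and 1219 with ATRA+NIC. Both transcripts were highest with ATRA. The gene level was 1.76-fold higher with ATRA than in the control, below the 2-fold limit, where CLCF1 at 2.29-fold was above it. It was 2.11-fold lower with ATRA+NIC than with ATRA. On the brighter transcript alone this last difference was 1.88-fold, and with an offset of 100 before log2 it was 1.91-fold.

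IL6ST, the shared chain gp130, had 1 transcript that read 1976, 2639 and 2215 in control, ATRA and ATRA+NIC cells. It was 1.34-fold higher with ATRA than in the control and 1.19-fold lower with ATRA+NIC than with ATRA. IL6R, the binding chain for interleukin 6, read 606 and 138 in the control, 764 and 163 with ATRA, and 549 and 103 with ATRA+NIC. Its differences were 0.29 from control to ATRA and −0.57 from ATRA to ATRA+NIC. Both IL6R transcripts went the same way in each comparison. The IL6ST difference of 0.42 for ATRA against control rests on a single transcript, beside a pooled SD of 0.31 between transcripts of a gene.

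STAT3, the transcription factor at the end of the pathway, was bright on all arrays. Its 4 transcripts read 3673 to 13546 on the control array, 4190 to 18498 with ATRA and 3932 to 14899 with ATRA+NIC. The gene level was 1.21-fold higher with ATRA than in the control, and 1.12-fold lower with ATRA+NIC than with ATRA. All 4 transcripts were higher with ATRA than in the control. The pair of brighter transcripts differed by 0.37 and 0.45 for ATRA against control, and the dimmer pair by 0.08 and 0.20. For ATRA+NIC against ATRA 1 of the 4 was higher. These are levels of mRNA, and phosphorylation of the protein was not measured.

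The inhibitor genes had the largest differences. SOCS1, with 1 transcript at chr16:11255774-11257540 on hg18, had intensities of 48.0 on the control array, 389 with ATRA and 82.6 with ATRA+NIC. The ATRA reading stood alone above the filter, and the control reading lay just under 50. SOCS1 was at least 7.79-fold higher with ATRA than in the control, where the measured values gave 8.12-fold, and 4.71-fold lower with ATRA+NIC than with ATRA.

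SOCS3, also with 1 transcript, at chr17:73864453-73867753 on hg18, read 209.5 on the control array, 1109 with ATRA and 211 with ATRA+NIC. The control and ATRA+NIC readings were 1.01-fold apart. SOCS3 was 5.29-fold higher with ATRA than in the control and 5.26-fold lower with ATRA+NIC than with ATRA. A single transcript read by 3 probes carries each of the SOCS1 and SOCS3 values, so neither has a second reading on its array.

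**Figure D2:**
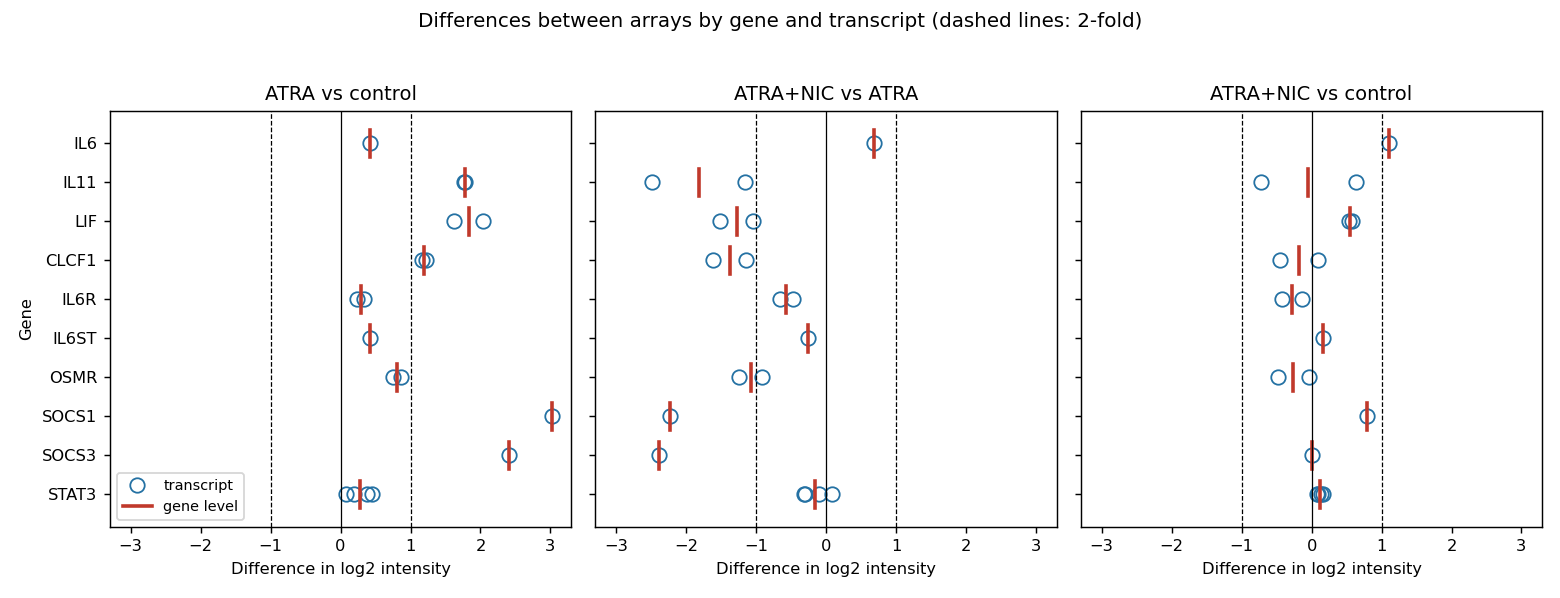
Difference in log2 intensity (horizontal axis) for each member in the 3 comparisons, with open circles for transcripts, red bars for the gene level and dashed lines at 2-fold. All 18 transcripts were higher with ATRA than in the control by measured values, the IL6 transcript with both readings under 50. With ATRA+NIC 16 were lower than with ATRA, and the IL11 transcripts lay on opposite sides of 0 for ATRA+NIC against control. At the gene level 10 of 10 members were higher with ATRA than in the control, and 9 of 10 lower with ATRA+NIC than with ATRA. Of all genes passing the filter, also at the gene level, 45.6% were higher with ATRA than in the control, and 55.8% higher with ATRA+NIC than with ATRA.

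Readings of the rest of the SOCS family lay closer together across the arrays. The other 6 genes, SOCS2, SOCS4, SOCS5, SOCS6, SOCS7 and CISH, had differences of −0.44 to 0.29 on the log2 scale for ATRA against control, and none was 2-fold apart. CISH, a STAT5-induced inhibitor, was the only one of them 2-fold apart between ATRA+NIC and ATRA, with gene-level intensities of 255.5 (control), 264 (ATRA) and 124 (ATRA+NIC). It was 2.13-fold lower with ATRA+NIC than with ATRA, or 1.63-fold with an offset of 100 before log2. In the wider list of 13 other inhibitors, which adds PIAS proteins and tyrosine phosphatases, 0 were 2-fold higher and 0 lower with ATRA, with a median of −0.20, and 1, CISH, was 2-fold lower with ATRA+NIC than with ATRA (median −0.14). Of all genes without the filter, 4.23% were 2-fold higher and 3.22% lower with ATRA, and 4.12% were lower with ATRA+NIC against ATRA.

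The other ligands of the family were mostly dim. Of 7 measured, 2 passed the filter, CTF1 and IL27, and neither was 2-fold apart in any of these comparisons. IL27 had intensities of 141, 148 and 267 in control, ATRA and ATRA+NIC cells. OSM, which encodes oncostatin M and is named here although the naming rule leaves it out, read 132.5, 191 and 80.2, under the filter on all arrays. Over all 7, 0 were 2-fold higher and 2 lower with ATRA (CNTF and IL31, median 0.07), and 0 higher and 1 lower with ATRA+NIC against ATRA (OSM, median 0.37). Of all genes without the filter, 3.22% were 2-fold lower with ATRA and 4.12% with ATRA+NIC against ATRA.

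Of 5 other receptor chains, IL11RA and IL27RA passed the filter, and none of the 5 was 2-fold apart in these comparisons (medians −0.38 and −0.01). IL11RA, the binding chain for interleukin 11, read 264, 191 and 326. LIFR, chosen after its values were seen because it is the receptor for LIF, lay at 22.7, 17.5 and 15.1, close to the random probes on every array. CNTFR, the binding chain for CLCF1, was likewise at 22.3, 28.9 and 24.0. Readings at this level set only an upper bound near 50.

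The next list held Janus kinases, other STATs and gp130 adaptors. Of 15 genes, 2 were 2-fold higher with ATRA and 0 lower (median 0.20), beside 4.23% and 3.22% of all genes, and none was 2-fold apart between ATRA+NIC and ATRA (median −0.33). STAT5A, a STAT that responds to growth-factor and cytokine receptors, read 120.5, 288 and 193.5 and was 2.39-fold higher with ATRA than in the control, or 1.78-fold with an offset of 100 before log2. The other was STAT4, with all readings near or under 50 (23.0, 55.9 and 37.1). JAK1, the kinase that serves gp130, was 1.53-fold higher with ATRA.

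**Figure D3:**
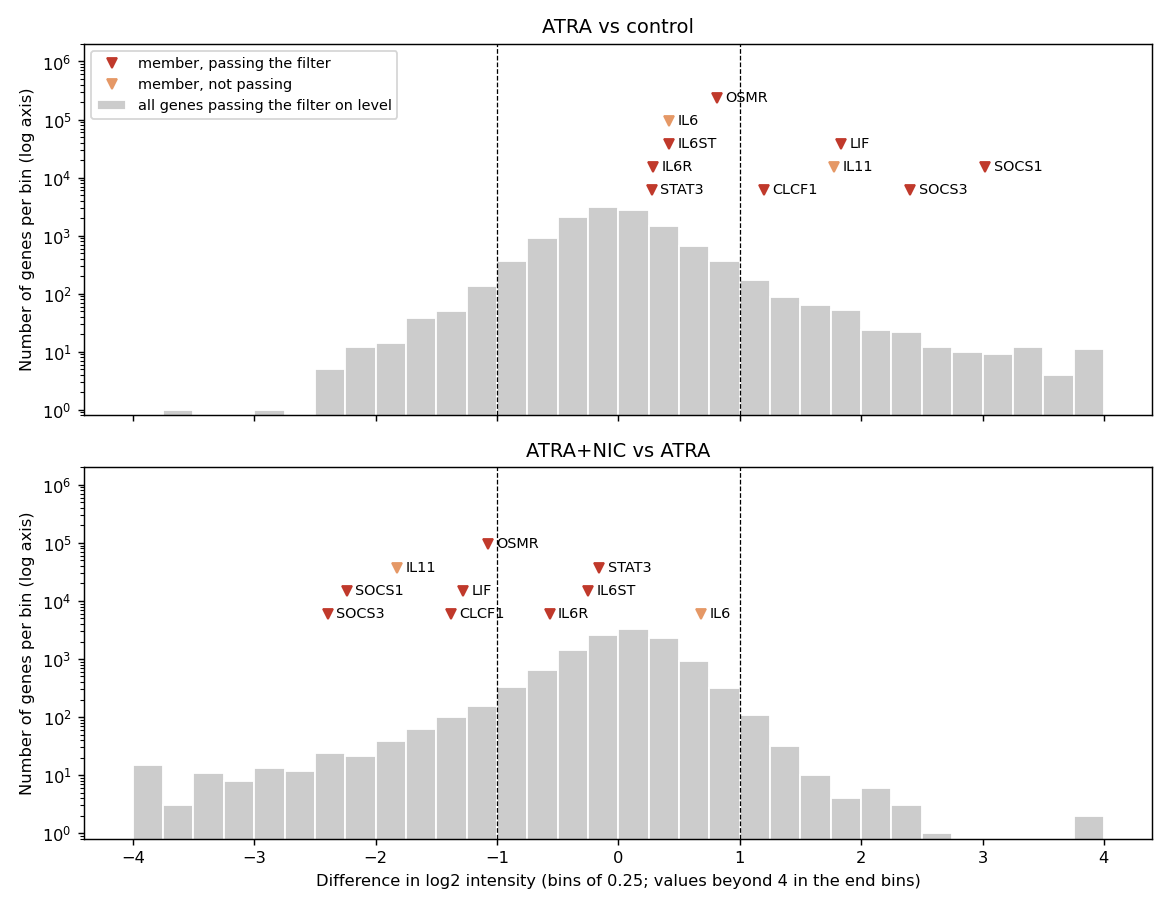
Number of genes passing the filter (vertical axis, logarithmic) by difference in log2 intensity for ATRA against control (top) and ATRA+NIC against ATRA (bottom), with triangles for the 10 members at their own differences and at arbitrary heights. SOCS1 and SOCS3 lie farthest out, at 3.02 and 2.40 in the upper panel and −2.24 and −2.39 in the lower one.

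Known STAT3 target genes were read as the output end of the pathway. Of 25 measured, 10 were at least 2-fold higher with ATRA than in the control and 1, the dim FGF2 at 35.2 and 14.6, was lower, with a median of 0.74. Without the filter, 4.23% of all genes were 2-fold higher and 3.22% lower. In the comparison of ATRA+NIC with ATRA, 7 were lower and 2, BIRC5 and FGF2, higher, with a median of −0.71. The shares of all genes there were 4.12% lower and 3.09% higher. Several are also targets of growth-factor signalling, NF-kappaB or retinoids, so the list is not specific to STAT3. Like the other lists, it was chosen with earlier results of these data known.

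The kinase genes PIM1, PIM2 and PIM3, which promote survival, were 2.67-fold, 2.47-fold and 3.13-fold higher with ATRA. PIM1 read 1602, 4270 and 1784 in control, ATRA and ATRA+NIC cells and was 2.39-fold lower with ATRA+NIC than with ATRA, while the other 2 stayed under 2-fold there. The early-response transcription factor gene FOS (211, 4372 and 165 at the gene level) had the greatest difference of the list, 20.7-fold higher and then 26.4-fold lower. JUNB was 2.30-fold and CEBPB, a transcription factor of the acute-phase response, 2.46-fold higher with ATRA, and CEBPB was 2.79-fold lower with ATRA+NIC. VEGFA, an angiogenic factor, was 3.29-fold higher and then 4.36-fold lower, and the adhesion molecule gene ICAM1 3.40-fold higher and then 2.74-fold lower. S100A9, an antimicrobial calcium-binding protein gene, was 2.16-fold higher and then 2.04-fold lower.

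MYC, a growth regulator, was 1.64-fold higher with ATRA and 2.29-fold lower with ATRA+NIC than with ATRA. BIRC5, an inhibitor of apoptosis that serves mitosis, went the other way, 2.00-fold lower with ATRA after rounding, just short of the limit, and 2.10-fold higher with ATRA+NIC against ATRA. With transcript values under 50 set to 50 these folds were 1.84 and 1.93. LCN2, which encodes the iron-siderophore binder lipocalin 2, read 5948, 23318 and 19231. It was 3.92-fold higher with ATRA than in the control and only 1.21-fold lower with ATRA+NIC than with ATRA.

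Acute-phase protein genes, many of them classical liver targets of interleukin 6, were listed together with SAA4. Most were near background. Of 15 measured, 5 passed the filter, 3 were 2-fold higher with ATRA (SERPINA3, SAA4 and the dim ORM2) and 0 lower (median 0.26). The shares of all genes without the filter were 4.23% higher and 3.22% lower. With ATRA+NIC against ATRA 1 was higher by measured values, CRP, and 1 lower, SERPINA3 (median 0.00). Of all genes, 3.09% were higher and 4.12% lower. SERPINA3, which encodes alpha-1-antichymotrypsin, read 95.2, 1170 and 346 in control, ATRA and ATRA+NIC cells. It was 12.3-fold higher with ATRA than in the control, 3.39-fold lower with ATRA+NIC than with ATRA, and still 3.63-fold above the control. SAA4, of the serum amyloid A cluster, was 2.04-fold higher with ATRA, or 1.95-fold on its brightest transcript and 1.67-fold with an offset of 100. SAA1 read 5315, 7150 and 7570 and SAA2 8621, 12702 and 13113, each under 2-fold in all 3 comparisons. CRP, the C-reactive protein gene, read 17.9, 10.3 and 26.5, at the level of random probes. With values under 50 set to 50, the dim genes CNTF, IL31, STAT4, FGF2, ORM2 and CRP were all under 2-fold.

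The last list held regulators known to act upstream of IL6 transcription or on its mRNA. Of 17 measured, 11 were 2-fold higher with ATRA and 0 lower (median 1.12), beside 4.23% and 3.22% of all genes. With ATRA+NIC against ATRA, 9 were 2-fold lower and 0 higher (median −1.42), beside 4.12% and 3.09% of all genes. The AP-1 family genes JUN (325, 1683 and 107) and FOSL1 (10679, 38988 and 7953) were 5.18-fold and 3.65-fold higher, and then 15.8-fold and 4.90-fold lower. ATF3, a stress-response repressor, was 7.28-fold higher. NFKB2 and RELB, subunits of NF-kappaB, were 2.22-fold and 2.17-fold higher, and NFKBIZ, a nuclear cofactor for IL6, 3.06-fold. TNFAIP3, an NF-kappaB inhibitor, was 2.88-fold higher, and ZFP36 and ZC3H12A, which encode proteins that degrade cytokine mRNA, 5.61-fold and 2.11-fold. IL1A and IL1B, cytokines that induce IL6, were 3.72-fold and 2.12-fold higher with ATRA and 9.61-fold and 4.38-fold lower with ATRA+NIC. TNF read 339.5, 353 and 108, 3.26-fold lower with ATRA+NIC than with ATRA.

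**Figure D4:**
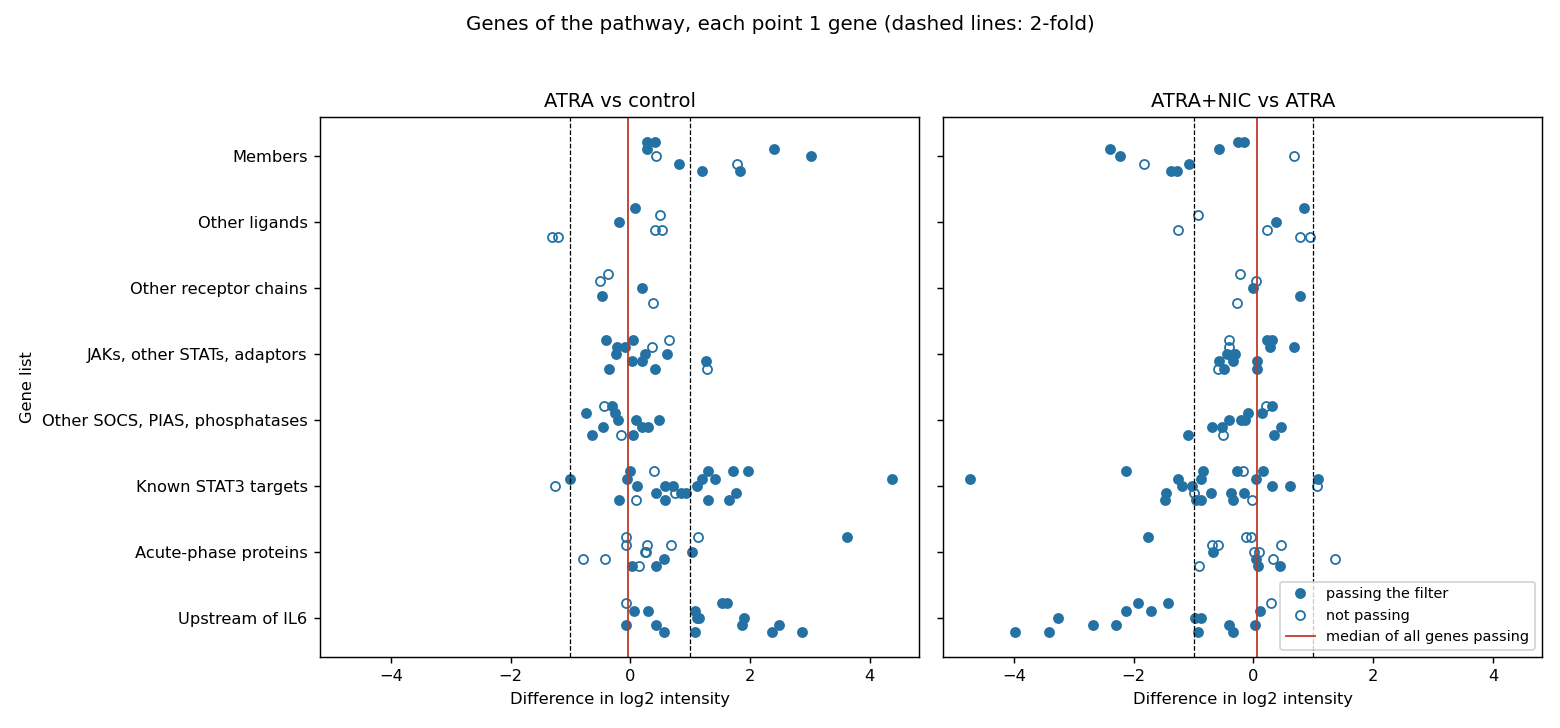
Difference in log2 intensity (horizontal axis) of each gene, by list, for ATRA against control (left) and ATRA+NIC against ATRA (right). Filled points passed the filter on level, open points did not, dashed lines mark 2-fold and the red line is the median of all genes passing. The list upstream of IL6 has 11 of 17 genes beyond the right dashed line on the left, and the list of other receptor chains has none. Without the filter, 4.23% of all genes were 2-fold higher with ATRA.

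Genes with readings most like those of each member were taken as the nearest of 11090 named genes that passed the filter, by distance over the differences ATRA minus control and ATRA+NIC minus ATRA, which rest on 3 arrays. For SOCS3 the nearest was CHAC1, a glutathione-degrading enzyme gene of the stress response (distance 0.09), followed by SPARC (0.22) and DNAJA4 (0.27). For SOCS1 it was OSGIN1 (0.22), then the haemoglobin genes HBD (0.23) and HBA1 (0.26), whose family members have near-identical sequences. LIF lay nearest to RGS3, PGF and DUSP4 (0.13, 0.13 and 0.15), CLCF1 to XBP1, MIDN and PIK3IP1 (0.02, 0.05 and 0.07) and OSMR to AMMECR1L, TBX3 and MAFG (0.02, 0.03 and 0.03). The number of other named genes within 0.25 was 2 for SOCS1 and for SOCS3, 11 for LIF, 58 for CLCF1 and 150 for OSMR. Among these members OSMR had the most genes with like readings, 150 of the 11090. For IL11 no near gene is given, since its ATRA+NIC level includes a reading under 50, and the SOCS1 distances use its control reading just under 50. SPARC, HBD, PGF and PIK3IP1 passed the filter only through the ATRA array (298, 746, 307 and 524), which ties their passing to their differences.

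Markers were read to check the cell type. All 11 keratinocyte markers passed the filter, with summed intensities of 136798, 116777 and 106886 in control, ATRA and ATRA+NIC cells. KRT5, a basal keratin gene, read 29746, 10041 and 10009 and was 2.96-fold lower with ATRA than in the control. KRT17, another keratin gene, read 196.5, 397 and 251 and was 2.02-fold higher. Of the 11, 6 were higher and 5 lower with ATRA than in the control. With ATRA+NIC against ATRA, 2 were higher and 9 lower. TP63 (4217, 5913 and 2193) and DSG3 (1542, 2914 and 1147) were 2.70-fold and 2.54-fold lower with ATRA+NIC than with ATRA. The part of these markers in the members' differences was not tested. Leukocyte markers, which belong to cells that also express SOCS1, SOCS3 and IL6 family genes, were mostly dim, with 5 of 14 passing the filter. Of 14 measured, 12 were higher with ATRA than in the control and 12 lower with ATRA+NIC than with ATRA, with summed intensities of 10131, 16843 and 9852. Without LCP1 and CD68, the brightest, the sums were 1030.2, 1889 and 867. PTPRC, the pan-leukocyte gene, read 33.7, 151 and 18.5 at the gene level, and 3 of the 14 were under 50 on every array. None was at 0, and the part of these markers in the members' differences was not tested. In bulk RNA fewer cells of a type and less RNA per cell cannot be told apart. All 3 arrays here were of the HaCaT line. Fibroblast markers, of a cell type known for IL6 and LIF, had sums of 2560, 2633 and 2851, with 5 of 10 under 50 on all arrays. Melanocyte markers summed to 452, 557 and 704, with 2 of 7 under 50 throughout. Endothelial markers summed to 492, 2879 and 3575, and to 284, 345 and 312 without CDH5, with 4 of 8 under 50 throughout.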

How the data were processed

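RNA of 3 HaCaT cultures was read on NimbleGen arrays. Per the file headers and names, the authors' deposited values are RMA gene calls, linear intensities with 3 probes per transcript. The sources used here do not name the software. Array medians were close (301.5, 302.3 and 297.9), and no further scaling was applied. The deposited value table holds the same intensities for the 31275 transcripts at 50 or more on all arrays, 15 of the members' 18 among them.

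With Python 3.11.15, numpy 2.4.6 and pandas 2.3.3, log2 intensities were averaged over the transcripts of a gene. Of 23619 Entrez numbers, 20230 took a current RefSeq symbol, the file's name was kept otherwise, and 2086 transcripts without a gene name were left out. Steps were tested on simulated data. With 1 array per group the number of arrays limits the precision, so no test was run, and differences follow a fixed 2-fold rule. Where a value on the dimmer side was under 50 and this moved a fold of a member, such values were set to 50 and the fold is given as "at least".

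Members and lists were chosen with earlier results of these data known. Genes named are all members, list genes that passed the filter and were 2-fold changed between ATRA and control or ATRA+NIC and ATRA (otherwise the greatest in the list), and the 3 genes nearest to each 2-fold changed member other than IL11. Outside this rule, JAK1, LIFR, CNTFR, OSM, CTF1, IL27RA, SAA1, SAA2, the SOCS family, markers and the dim genes CNTF, IL31, STAT4, FGF2, ORM2 and CRP were named after their values were seen.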

Additional observations from a re-analysis of the deposited data

How the results depend on the processing

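Alternatives covered the transcript summary, low values, the filter, centring and the value table. Of 174 recomputed member differences 156 moved by less than the pooled SD between transcripts, 18 moved further and 0 of the called ones changed sign. Of the 18, 10 came with an offset of 100, which took SOCS1 to 1.73 and SOCS3 to 1.97 for ATRA against control. The same offset took IL11 to −0.99 and OSMR to −0.93 for ATRA+NIC against ATRA, so that 4 of the 6 members remained 2-fold lower. Among the list genes it ended calls that include those of CISH, SAA4 and STAT5A. Of genes passing the filter, the STAT3 targets 2-fold higher with ATRA went from 10 to 9, and the regulators upstream of IL6 from 11 to 10. For ATRA+NIC against ATRA, the STAT3 targets 2-fold lower went from 7 to 6 and those higher from 1 to 0. The brightest transcript took IL11 from −1.82 to −1.15 and OSMR to −0.91 for ATRA+NIC against ATRA. The filter at the 75th percentile left 4 members, of which 2 were 2-fold higher with ATRA and 2 lower with ATRA+NIC against ATRA, since SOCS1, SOCS3 and OSMR are then not counted. With no filter 1 member, IL6, was 2-fold higher in ATRA+NIC than in control. The value table, used with the same filter, holds neither IL6 nor SOCS1, and leaves 3 members 2-fold higher with ATRA.

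Counts of all genes moved with the filter by construction. Higher and lower with ATRA, they were 477 and 257, then 997 and 759 with no filter and 234 and 74 at the 75th percentile. For ATRA+NIC against ATRA, 168 and 466 became 728 and 973, and 48 and 221. For ATRA+NIC against control, 128 and 121 became 548 and 491, and 44 and 48. The offset of 100 gave 130 lower with ATRA, 75 higher for ATRA+NIC against ATRA, and 74 higher and 69 lower for ATRA+NIC against control. Depth cannot be read from arrays, and readings under 50 (IL6, LIFR, CNTFR, SOCS1 in the control) limit what can be said. No paired analysis was possible because each group has 1 array.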
